A study of Homo sapiens with 2 samples.

Results

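The urokinase system was followed through PLAU, PLAUR, PLAT, SERPINE2 and SERPINB2, the 5 rows of the deposited count table whose gene name equals one of these symbols, of 60649 rows in all. Each symbol matched a single row. Plasmin is a serine protease that dissolves fibrin and degrades matrix around cells. It is made from plasminogen by urokinase (PLAU), which acts on the cell surface while bound to its receptor uPAR (PLAUR), and by tissue plasminogen activator (PLAT). Both activators are blocked by serpins, inhibitors that trap a protease on a reactive loop; protease nexin 1 (SERPINE2) and plasminogen activator inhibitor 2 (SERPINB2) are among them. Like MT1-MMP, the membrane-anchored metalloproteinase encoded by MMP14, it degrades matrix at the surface of invading cells.

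RNA immunoprecipitation (RIP), in which RNA is sequenced that comes down with an antibody, was done on MDA-231 human breast cancer cells labelled as wild type. Both libraries came from cells kept without serum and exposed for 16 h to P4G11, an antibody to beta-1 integrin; E7-s is listed as well, with no role given. The first was precipitated with an antibody against MT1-MMP and the other, a mock, with rabbit IgG, and the comparison asks which RNAs lie above the mock. The design text was followed where a sample title reads MMP1 and a cell line tag reads MDA-232. There was 1 library per group, so no difference below has a replicate check and no p-value was computed. Untreated cells and unprecipitated RNA were not analysed here.

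The table summed to 31636000 MT1-MMP counts and 13003668 IgG counts, and the ribosomal DNA rows of chromosome 21 held 10.2% and 92.6% of them. Ratios are therefore given on a scale that sets the typical row near 1, by trimmed mean of M-values (TMM), on which 45.9 MT1-MMP counts to 1 IgG count make a scaled ratio of 1. By plain CPM, counts scaled to the library total, every log2 ratio lies 4.24 higher, and by totals without the ribosomal rows 0.64 higher. Intervals are exact 95% intervals and cover counting error only, and reads counted without molecular identifiers can be copies of 1 molecule. As a check of the labelled line, all 9 markers of a mesenchymal breast cancer line were counted, with a summed level of 2787 CPM for MT1-MMP and 173 CPM for IgG. Sums in CPM carry the shift between the libraries given above. On the TMM scale the median log2 ratio of these 9 markers was -1.57. EGFR with 47868 and CD44 with 25209 held most of the 88167 MT1-MMP counts, while LGALS1 had 79, against 115 in the IgG library. The 8 luminal markers summed to 25.4 and 9.69 CPM, with KRT19 holding 119 of the 126 IgG counts. The sums were 3.73 and 1.15 CPM for 6 fibroblast markers, with COL1A2 and COL3A1 at 0 in both, and 129 and 2.23 CPM for 5 endothelial markers, of which PECAM1 held 3414 of the 4071 MT1-MMP counts. For 6 leukocyte markers they were 5.75 and 2.15 CPM, with CD68 holding 26 of the 28 IgG counts. The part of other cell types in the results below was not tested.

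On the TMM scale PLAU and SERPINB2 were higher in the IgG library, and the other 3 genes lay within about 2-fold of the typical row. By plain CPM SERPINB2 was instead higher in the MT1-MMP library, with a log2 ratio of 1.31 (0.40 to 2.50). A gene was called where its whole interval on the TMM scale lay beyond 2-fold. By this rule 2 of the 5 genes were called higher in the IgG library, against 16.2% of the 14328 protein-coding genes with at least 20 summed counts, and 0 were called higher in the MT1-MMP library, against 7.24%. All 5 genes passed the minimum count. PLAU and SERPINB2, though, had too few counts to be called higher in the MT1-MMP library on the TMM scale, however they were split. PLGRKT, a plasminogen receptor with more counts than either, had 115 and 0, and its interval began at -0.58. The median log2 ratio of the 5 genes was -0.96, against 0.05 over the protein-coding genes tested.

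**Figure D1:**
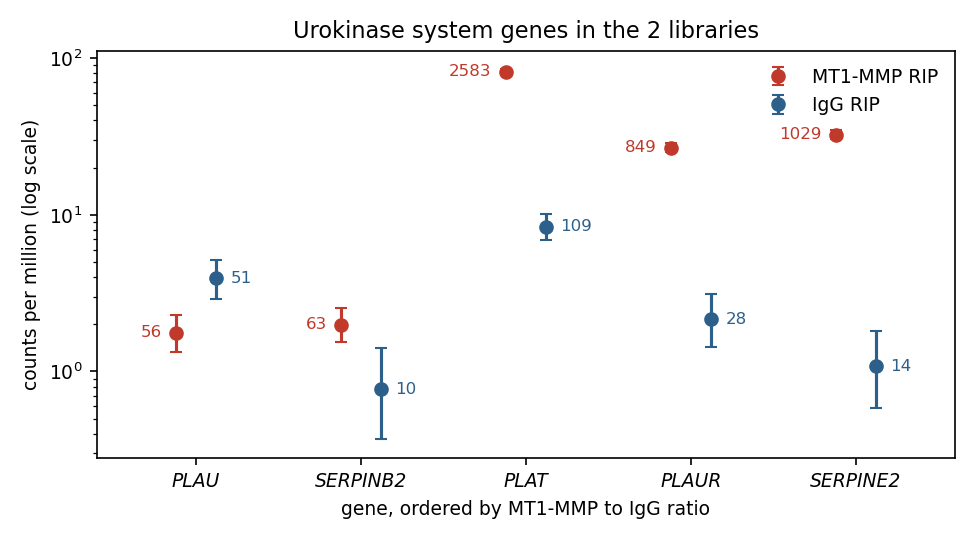
Level of each gene in CPM (log axis) in the MT1-MMP RIP and the IgG RIP, 1 library each; bars are exact Poisson 95% intervals and the numbers beside the points are raw counts. PLAU alone sits higher in the IgG library on this scale, 51 counts against 56 in a library of fewer total counts, while PLAT reaches 2583 counts.

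Of the activators, urokinase had the lowest ratio of the 5 genes. PLAU (GRCh38 chromosome 10, 73908832 to 73917494) was covered by 56 reads after precipitation with the MT1-MMP antibody and by 51 after IgG. These are 1.77 CPM (95% interval 1.34 to 2.30) and 3.92 CPM (2.92 to 5.16), so that PLAU was the one member whose CPM was higher in the mock. Its scaled log2 ratio was -5.39 (-5.96 to -4.81), a level 41.8-fold higher in the IgG library (28.0 to 62.2), and by plain CPM it was -1.15 (-1.72 to -0.57). Only 1.30% of the protein-coding genes tested had a lower ratio. The noncoding gene C10orf55, which overlaps PLAU from 73909969 to 73922777, held 57 and 50 counts, within 1 count of PLAU in each library. Reads of the pair cannot be told apart, since no source used here says whether the counting was stranded.

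PLAT behaved differently from PLAU. PLAT (chromosome 8, 42174718 to 42207565), whose product activates plasminogen mainly on fibrin, had 2583 MT1-MMP counts and 109 IgG counts. It held 56.4% of all MT1-MMP counts of the 5 genes and 51.4% of their IgG counts, where PLAU held 1.22% and 24.1%. The scaled log2 ratio of PLAT was -0.96 (-1.23 to -0.66), below the typical row but not beyond 2-fold, and by plain CPM it was 3.28 (3.01 to 3.57). No other RefSeq gene overlaps PLAT, alone among the 5 genes.

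The receptor stood close to PLAT. PLAUR (chromosome 19, 43646095 to 43670169) reached 849 MT1-MMP counts and 28 IgG counts, or 26.8 CPM (25.1 to 28.7) and 2.15 CPM (1.43 to 3.11). Its scaled log2 ratio was -0.62, with an interval from -1.14 to 4.2e-05 whose upper end lies at the typical row. The pseudogene RN7SL368P lies inside PLAUR and held 21 and 0 counts. By plain CPM the log2 ratio of PLAUR was 3.61 (3.10 to 4.24).

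The inhibitors lay apart from each other. SERPINE2 (chromosome 2, 223975045 to 224039286), a secreted serpin that binds heparan sulfate and inhibits thrombin, urokinase and tissue activator, had 1029 MT1-MMP counts against 14. The scaled log2 ratio, 0.63 (-0.07 to 1.56), was the single one above 0 among the 5 genes, and its interval includes a ratio of 1. SERPINB2 (chromosome 18, 63887705 to 63903888), a serpin that stays largely inside the cell, had 63 and 10 counts. Its scaled log2 ratio was -2.92 (-3.84 to -1.74), a level 7.59-fold higher in the IgG library (3.33 to 14.3), although by plain CPM it was higher in the MT1-MMP library, at 1.31 (0.40 to 2.50). SERPINB10, the next serpin gene, begins 4.07 kb beyond SERPINB2 in RefSeq and held 28 counts and the same 10 IgG counts. Its log2 ratio was -4.08 (-5.12 to -2.83).

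Ratios of 2 genes can be compared without any scale between the libraries, by the odds ratio of their counts. Of the 10 pairs of members, 9 had an exact interval that excluded 1. SERPINE2 exceeded PLAU 66.2-fold (33.7 to 138), PLAUR exceeded PLAU 27.4-fold (15.6 to 48.9), PLAT exceeded PLAU 21.5-fold (13.7 to 33.7) and SERPINB2 exceeded PLAU 5.68-fold (2.55 to 13.8). These 4 comparisons place PLAU below every other member. SERPINE2 exceeded SERPINB2, the other serpin, 11.6-fold (4.42 to 29.4). It exceeded PLAUR 2.42-fold (1.22 to 5.01) and PLAT 3.10-fold (1.76 to 5.89), while PLAUR and PLAT exceeded SERPINB2 4.80-fold (1.99 to 10.8) and 3.76-fold (1.67 to 7.64). The one pair that could not be ordered was PLAUR over PLAT, at 1.28 (0.83 to 2.03).

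Per length, the order of the genes was not the same in the 2 libraries. Levels were divided by gene span, start to end with introns, since no source used here gives the length of the counted exons. In the MT1-MMP library PLAT stood at 2.49 CPM per kb of span, PLAUR at 1.11, SERPINE2 at 0.506, PLAU at 0.204 (0.154 to 0.265) and SERPINB2 at 0.123 (0.0946 to 0.157). The intervals of PLAU and SERPINB2 overlap there and those of the other neighbours do not. PLAT exceeded 95.6% of the protein-coding genes tested by this measure, PLAUR 81.8%, SERPINE2 55.4%, PLAU 29.9% and SERPINB2 21.4%. In the IgG library PLAU came first, at 0.453 CPM per kb (0.337 to 0.595), above 96.1% of genes. PLAT followed at 0.255 (0.210 to 0.308), above 92.8%. PLAUR stood at 0.0894 (0.0594 to 0.129), SERPINB2 at 0.0475 (0.0228 to 0.0874) and SERPINE2 at 0.0168 (0.00916 to 0.0281), and here only PLAU and PLAT were clear of their neighbours' intervals. PLAUR exceeded 79.9% of genes, SERPINB2 66.3% and SERPINE2 40.7%. By this measure PLAT and PLAUR thus stood above most genes in both libraries, PLAU and SERPINB2 in the mock library only, and SERPINE2 in the MT1-MMP library only. The mock intervals of SERPINB2 and SERPINE2 both include the level of the median gene, 0.0251 CPM per kb. By counts not divided by span, SERPINB2 exceeded 44.8% of genes in the mock library.

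The ratio follows gene span across this table, with a Spearman's rho of 0.62 over the 14328 protein-coding genes, which share the 2 libraries and are not independent replicates. The order of the 5 genes was nearly that of their spans: PLAU covers 8.66 kb, SERPINB2 16.2 kb, PLAUR 24.1 kb, PLAT 32.8 kb and SERPINE2 64.2 kb, with PLAUR and PLAT, the pair that could not be ordered, the one exchange. Each gene was therefore set beside genes of its own span, by dividing the protein-coding genes tested into 10 equal bins ordered by span. PLAU lay 3.72 (log2) below the median of its bin, which was -1.67 with quartiles of -2.92 and -0.33, and 16 of the 1433 genes of that bin had a lower ratio. SERPINB2 lay 1.94 below a median of -0.99 (quartiles -1.96 and 0.08), with 141 of 1433 genes lower. These genes lay outside the quartiles, and the other 3 lay within them. PLAT was 0.77 below its bin's median of -0.19, PLAUR 0.18 below a median of -0.44, and SERPINE2 0.25 above a median of 0.38. In the span bin of PLAU 38.6% of genes were called higher in the IgG library, in that of SERPINB2 24.9%, and in that of SERPINE2 3.56%. The part of span in the ratios of single genes was not tested beyond these values.

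**Figure D2:**
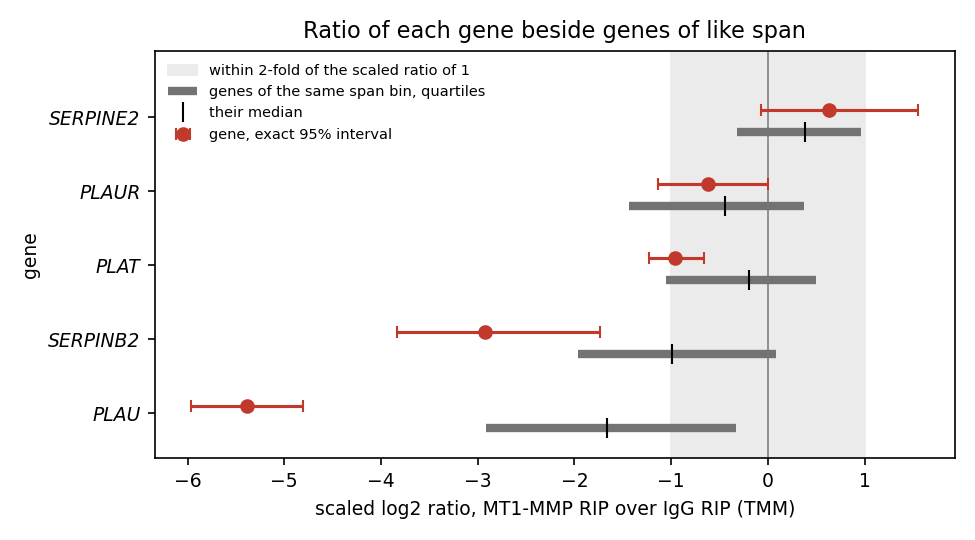
Scaled log2 ratio of MT1-MMP RIP over IgG RIP for each gene with its exact 95% interval (red), beside the quartiles (grey bar) and median (tick) of the protein-coding genes in the same span bin; the shaded band is within 2-fold of a scaled ratio of 1. PLAU at -5.39 and SERPINB2 at -2.92 lie left of their grey bars, and PLAT, PLAUR and SERPINE2 lie inside theirs.

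The other genes of plasminogen activation were taken as a list of 54, of which 46 had at least 20 counts. Of these, 9 were called on the IgG side (19.6%, against a background of 16.2%) and 3 on the MT1-MMP side (6.52%, against 7.24%). Their median log2 ratio was -0.52, or -0.65 with the 5 genes at 0 IgG counts set to a floor of 3 counts. Across these 46 genes the rho between span and ratio was 0.55.

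Plasminogen itself (PLG), a liver product, had 68 and 2 counts. TFPI2, a matrix-bound inhibitor of plasmin and other serine proteases, had 26 and 7 counts (-3.70, -4.87 to -2.18) and was called higher in the IgG library. TFPI, an inhibitor of the tissue factor pathway with a span of 90.2 kb, was called in the other direction, with 7886 and 56 counts (1.60, 1.24 to 2.02). TFPI overlaps CALCRL-AS1, so that its reads may be shared. SERPINB6, an intracellular serpin, had 1356 and 28 counts (0.05, -0.46 to 0.67). Of 8 tested genes of plasminogen and further inhibitors, 1 was thus called on the IgG side (12.5%, against 16.2% of all genes tested). On the MT1-MMP side it was 1 as well (12.5%, against 7.24%). The median of the list was 0.38 and became -0.30 with the floor.

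Of 8 plasminogen receptors and cofactors, 4 were called on the IgG side (50.0%, against 16.2% of all genes tested) and 0 on the MT1-MMP side (against 7.24%), and the median was -1.47, against 0.05 over all genes tested. The 4 were the matrix glycoprotein THBS1 (1883 and 549 counts, -3.74), the glycolytic enzyme and surface plasminogen receptor ENO1 (2315 and 646 counts, -3.68), the keratin KRT8 (1051 and 170 counts, -2.90) and S100A10 (761 and 82 counts, -2.31). KRT8 overlaps KRT18, and THBS1 overlaps FSIP1, so that their reads may be shared. The 4 genes held 82 to 646 IgG counts, against a median of 12 over all genes tested, and higher counts give narrower intervals. In the span bins of S100A10, ENO1, THBS1 and KRT8, 38.6%, 24.9%, 15.4% and 3.56% of genes were called on the IgG side. Whether 4 of 8 differs from the share of all genes was not tested. ANXA2, the partner of S100A10 in the plasminogen-binding complex at the membrane, had 12015 and 406 counts and stayed within 2-fold (-0.64, -0.78 to -0.49). S100A10 spans 10.9 kb and ANXA2 50.8 kb.

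Among the receptors that clear inhibitor-bound urokinase and the surface partners of uPAR, 3 of 19 were called on the IgG side (15.8%) and 1 on the MT1-MMP side (5.26%), shares near the 16.2% and 7.24% of all genes tested, and the median was -0.47. LRP1, the endocytic receptor that takes up uPAR with its ligands, had 545 and 57 counts (-2.27, -2.66 to -1.84) over a span of 84.9 kb. The integrin subunits ITGA5 (309 and 48 counts, -2.85) and ITGA3 (2161 and 213 counts, -2.18) were on the same side. EGFR, a growth factor receptor with which uPAR signals, was called in the MT1-MMP library (47868 and 391 counts, 1.41, 1.27 to 1.56) and spans 192.6 kb. EGFR overlaps EGFR-AS1, LRP1 overlaps LRP1-AS and ITGA5 overlaps GPR84-AS1, so that their reads may be shared. ITGB1, the antigen of the treatment antibody and a uPAR partner, had 8940 and 269 counts and stayed within 2-fold (-0.47).

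Of 11 tested activators and substrates, the protease-activated receptor F2RL1 was called higher in the IgG library (1697 and 114 counts, -1.63, -1.90 to -1.34), and PDGFD, a growth factor that urokinase can cleave, higher in the MT1-MMP library (2378 and 7 counts, 2.79, 1.84 to 4.20). PDGFD overlaps DDI1 and spans 257.0 kb. Tissue factor (F3) had 1623 and 46 counts (-0.39, -0.80 to 0.08), and CTSB, a cathepsin that can activate pro-urokinase, 1487 and 72 (-1.16, -1.49 to -0.79). The calls made 9.09% of this list on each side, against 16.2% of all genes tested on the IgG side and 7.24% on the MT1-MMP side. The median of this list was -0.89, or -1.08 with the floor.

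**Figure D3:**
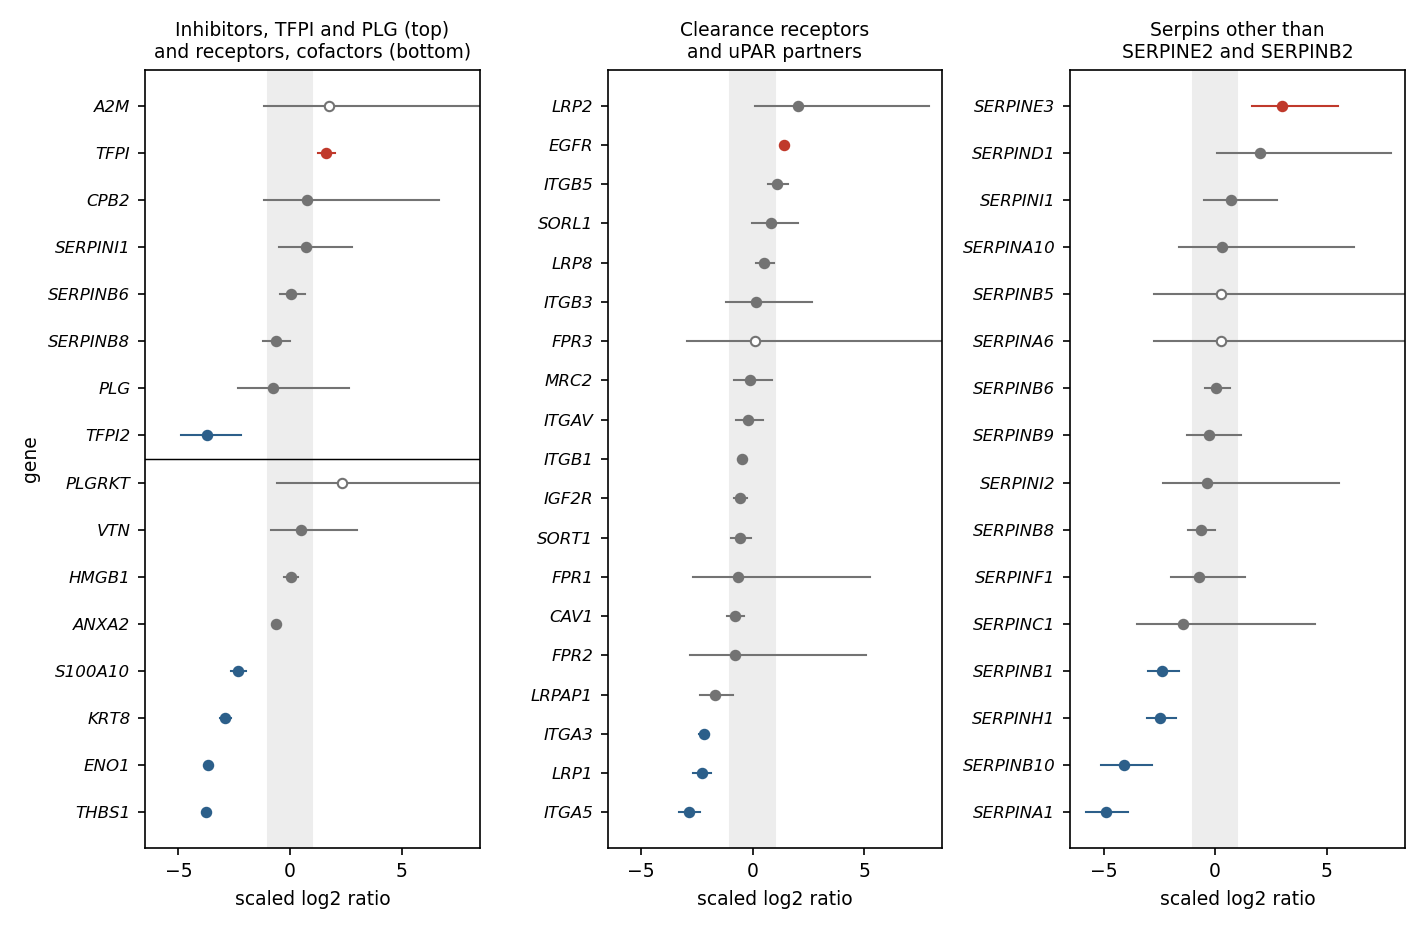
Scaled log2 ratio with exact 95% interval for plasminogen, further inhibitors, plasminogen receptors, clearance receptors and other serpins with at least 20 counts; blue genes were called higher in the IgG RIP, red ones in the MT1-MMP RIP, grey ones in neither, and open points had 0 IgG counts, so that their interval has no upper end. SERPINA1 lies lowest, at -4.87, and the interval of SERPINE3, the highest serpin, runs from 1.67 to 5.50.

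Of 31 serpin genes other than SERPINE2 and SERPINB2, 16 could be tested. Of these, 4 were called on the IgG side (25%, against 16.2% of all genes tested) and 1 on the MT1-MMP side (6.25%, against 7.24%), around a median of -0.32 that became -0.69 with the floor. On the IgG side were SERPINA1 (27 and 17 counts, -4.87), an inhibitor of neutrophil elastase, SERPINB10, the collagen chaperone SERPINH1 (205 and 24 counts, -2.45) and SERPINB1 (180 and 20 counts, -2.38). SERPINE3, in the same clade as SERPINE2, was on the other side with 1285 and 3 counts (log2 interval 1.67 to 5.50), but it overlaps INTS6 and the ratio cannot be assigned to it alone.

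The genes whose pair of levels came nearest to each member, by Euclidean distance in log2 CPM over the 2 libraries, were found among all tested protein-coding genes. For PLAU they were FLNC (58 and 50 counts, distance 0.058) and APEX1 (54 and 49, 0.077). For SERPINB2 they were UBQLN2, with identical counts of 63 and 10, and MAPK3 (62 and 10, 0.023). PWP1 and CDC42EP4 came nearest to PLAUR, UBAP2L and ARHGEF2 to PLAT, and POR and PSORS1C1 to SERPINE2, at distances of at most 0.054. With 2 libraries such likeness is a description of 2 levels.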

How the data were processed

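The authors deposited whole-number read counts per gene row for 2 libraries in 1 table. Cutadapt, HISAT2 and SAMtools and the build hg38 are named per the submitters' processing notes; no source used here gives versions, counter, annotation or strand. Columns were tied to libraries by the labels. Rows were matched to RefSeq (GRCh38.p14) by symbol or older symbol (39327 of 60649), and 959 rows repeating a name and its counts were left out, except from the totals. Ratios used TMM factors (edgeR 4.0.16) over the 25933 rows with at least 20 summed counts and 0.5 counts added for the log2 value. Intervals are Clopper-Pearson at 95%, conditional on the summed count, and for pairs the exact conditional odds ratio (scipy 1.17.1). The ratio intervals were tried on simulated Poisson counts. These hold counting error only, the error the intervals assume, so the trial cannot show how they cover other variation between libraries. Spans were split into 10 bins. Alternatives were plain CPM, DESeq2 1.42.0 size factors, upper quartile, totals without the 28 ribosomal rows, protein-coding rows, minimums of 1 or 100 counts, 0.1, 2 or 5 counts added, intervals beyond 1- or 4-fold, genes without overlap and 20 bins. Named were the 5 members, overlapping rows, up to 5 genes per list and direction by interval bound, the 2 with most counts per list, and the 2 nearest genes. One gene of the lists is not reported here and was left out of their counts. Members and lists were chosen with earlier results of these data known.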

Additional observations from a re-analysis of the deposited data

How the results depend on the processing

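The direction of PLAU, lower in the MT1-MMP library, was the same under every scaling, minimum and added count tried, and comparisons between pairs of members involve no scale. By plain CPM no member was called higher in the IgG library (0) and 3 were in the MT1-MMP library; PLAU became -1.15 (-1.72 to -0.57), an interval no longer wholly beyond 2-fold, SERPINE2 rose to 4.87, and PLAUR (3.61), PLAT (3.28) and SERPINB2 (1.31) changed sign. The other plasminogen system genes then had 0 and 41 calls and a median of 3.72. The medians of other serpins (3.92), plasminogen receptors (2.76), clearance receptors (3.77) and activators (3.34) turned positive. By plain CPM the log2 ratio of every gene lies 4.24 higher, so these counts are not particular to the genes named. The share called over all genes was computed at the main setting only, and calls under other settings have no background beside them. By totals without ribosomal rows PLAUR was 0.015 and the medians of the plasminogen system genes, serpins and clearance receptors 0.12, 0.32 and 0.17. With a minimum of 100 counts, which removes SERPINB2, PLAT was called (-1.38), the plasminogen system genes had 1 call in the MT1-MMP library, and the medians of LY6 genes and surface proteases were -0.072 and -0.095. With a minimum of 1 they were -1.25 and -1.70. These are the values of TEX101 (7 MT1-MMP counts) and TMPRSS3 (5 MT1-MMP counts), both with 0 IgG counts. On the IgG side both values rest on the count added before the log, so neither is a measured ratio. With DESeq2 size factors the median of surface proteases was -0.0077. Past 4-fold 1 member was called, PLAU. Over genes without overlap the plasminogen system genes had 4 and 0 calls, fewer genes being tested. The 3 called higher in the MT1-MMP library at the main setting, TFPI, EGFR and PDGFD, each overlap another gene and were left out. The medians of inhibitors and LY6 genes were then -0.35 and -2.90. The first rests on SERPINI1, SERPINB6, PLG and TFPI2, and the second on PSCA (-0.70) and LY6E (-5.10) alone. PLAU itself overlaps C10orf55 and was kept. Its distance from the median of the genes without overlap in its span bin was -3.16. The cause of the other changes was not tested. No paired analysis was possible because each group has 1 library. An IgG library with 10 to 109 counts per member limits every interval.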

Other observations

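The LY6 family, which shares the three-finger fold of uPAR, was mostly too low to test: 7 of 23 genes had at least 20 counts, and 6 were at 0 in both libraries. LY6E, a short gene of 3.88 kb, had 27 and 20 counts and was called higher in the IgG library (log2 ratio -5.10, -5.98 to -4.18). CD59, the complement inhibitor and the family member with most counts (5492 and 101), stayed within 2-fold (0.24, -0.04 to 0.54). LYPD6B, which spans 176.6 kb, was called higher in the MT1-MMP library (1729 and 9 counts, 1.99, 1.14 to 3.20). The calls were 1 of 7 on each side (14.3%), against 16.2% of all genes tested on the IgG side and 7.24% on the MT1-MMP side. The list's median was 0.24.

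Of 23 surface and secreted serine proteases outside the plasminogen activators, 9 could be tested and 0 were called in either direction, with no replicated test behind that count. Of all genes tested, 16.2% were called on the IgG side and 7.24% on the MT1-MMP side. Whether 0 of 9 differs from these shares was not tested, and low counts limit what the 0 can show. The 3 genes at 0 IgG counts have intervals with no upper end, so they could not be called on the IgG side. Nor were 0 IgG counts enough for a call on the MT1-MMP side: the interval of ST14 (60 and 0 counts) began at -1.54. PRSS23 (5556 and 79 counts, 0.61, 0.30 to 0.95) and HTRA1 (1153 and 13 counts, 0.90, 0.17 to 1.86) held the most counts. The median of the list was 0.04, or -0.81 with the 3 genes at 0 IgG counts set to the floor.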
